A study of Mus musculus with 8 samples.

Results

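MAP kinase cascade and protein phosphatase genes were followed across mouse spermatogonial differentiation. Members were taken by a pattern of gene symbols, which was chosen with earlier results of these data known. It names MAP kinases and the kinases above them (Map2k, Map3k, Map4k, Mapk), ribosomal S6 kinases, dual-specificity phosphatases (Dusp), tyrosine phosphatases (Ptpn and Ptpr), serine/threonine phosphatase subunits (Ppp), Spry and Spred inhibitors, phosphoinositide 3-kinase (PI3K) genes and Akt kinases. The pattern takes names, so it also took interacting proteins, 1 antisense gene and 1 pseudogene, and 1 matching gene was left out by the rule. It found 74 members among the 5736 genes of the expression table, and no *Akt* or *Spry* gene is among them.

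RNA was sequenced from EGFP-positive cells sorted from testes of CD1:Uchl1-eGFP mice, in which the *Uchl1* promoter drives EGFP. The 8 libraries are 2 of Aal (undifferentiated spermatogonia), 3 of A1 and 3 of A3 (type A1 and type A3 differentiating spermatogonia), named here Aal-1, Aal-2, A1-1 and so on. The labels give for every group bis-(dichloroacetyl)-diamine, which blocks the synthesis of retinoic acid (RA), at 100 µg per g of body weight by mouth. One subcutaneous injection of 10 µl RA at 10 µg/µl on postnatal day 11 then started differentiation. By the series description, undifferentiated cells fill the testis before that injection and A1 cells 24 h after it. The treatment label gives the injection for all 8 libraries, Aal included, and no collection age for Aal or A3, so whether the Aal pups had received RA is not settled by the labels. Each library is a separate cell preparation pooled from several pups, and the sorted cells carry the transgene in every group. The labels describe no group without the inhibitor.

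In a MAP kinase cascade, signals from growth factor receptors pass through RAS to a chain of kinases, each phosphorylating the next, and the last of them (ERK, JNK or p38) acts on transcription factors and other kinases. Dual-specificity and tyrosine phosphatases remove those phosphates, and Spred proteins hold RAS signalling back. PI3K makes the lipid that recruits AKT, a pathway used by both the GDNF receptor of undifferentiated spermatogonia and the KIT receptor of differentiating ones. PP1 and PP2A, the main serine/threonine phosphatases, gain their specificity from many regulatory subunits.

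The PI3K genes held the most called members, in both directions, so the start regions of 4 of them are shown. Each window holds 250 bases before and 50 after an annotated start (RefSeq, GRCm38.p6, a later build than the mm9 of the expression values), written 5′ to 3′ on the gene's strand. Capitals mark matches to 1 of 6 motifs searched on both strands, and no other letters matched.
Pik3cd (chr4:149676040-149676339, minus strand, the start with the most CpG of 3): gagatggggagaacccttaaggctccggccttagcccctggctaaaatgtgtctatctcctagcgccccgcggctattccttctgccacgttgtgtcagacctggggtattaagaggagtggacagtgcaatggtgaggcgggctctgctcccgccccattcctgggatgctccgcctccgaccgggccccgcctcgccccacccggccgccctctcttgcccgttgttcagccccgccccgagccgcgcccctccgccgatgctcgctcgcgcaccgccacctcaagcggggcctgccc
Pik3ca (chr3:32396815-32397114, plus strand): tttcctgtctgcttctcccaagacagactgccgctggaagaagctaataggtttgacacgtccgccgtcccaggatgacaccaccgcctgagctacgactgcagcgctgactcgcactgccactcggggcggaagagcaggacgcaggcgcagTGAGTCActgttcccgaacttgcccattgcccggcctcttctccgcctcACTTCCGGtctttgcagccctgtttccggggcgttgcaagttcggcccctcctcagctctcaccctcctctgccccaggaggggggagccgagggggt
Pik3cb (chr9:99140162-99140461, minus strand): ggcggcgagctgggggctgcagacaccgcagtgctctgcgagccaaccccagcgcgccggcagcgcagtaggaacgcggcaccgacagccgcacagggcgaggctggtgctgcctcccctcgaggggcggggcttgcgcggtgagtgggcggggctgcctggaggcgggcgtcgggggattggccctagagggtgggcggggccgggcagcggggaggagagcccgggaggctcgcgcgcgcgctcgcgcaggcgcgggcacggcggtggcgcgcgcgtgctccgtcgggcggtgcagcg
Pik3ap1 (chr19:41385053-41385352, minus strand): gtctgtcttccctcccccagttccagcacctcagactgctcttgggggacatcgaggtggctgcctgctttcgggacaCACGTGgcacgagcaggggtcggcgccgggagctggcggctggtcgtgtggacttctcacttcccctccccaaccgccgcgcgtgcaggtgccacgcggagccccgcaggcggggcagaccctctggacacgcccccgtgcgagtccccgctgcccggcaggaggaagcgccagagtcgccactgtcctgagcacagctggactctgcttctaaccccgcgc
The *Pik3ca* window holds TGACTCA, an AP-1 element, and CCGGAAGT, an ETS element, both read on the other strand. The *Pik3ap1* window holds the E-box CACGTG, and neither the 3 windows of *Pik3cd* nor that of *Pik3cb* holds a match. Of 32851 mouse promoter windows, 5.2% hold TGACTCA, 3.89% hold CCGGAAGT and 7.15% hold CACGTG. Of the 73 windows of the 55 members with an entry, 2 hold TGACTCA, 5 hold CCGGAAGT and 3 hold CACGTG. A further 2 member windows hold TGACGTCA, found in 1.79% of all windows, and none holds the exact direct repeat of the retinoic acid receptor half-site with 5 or 2 bases between the copies, each found in 3 of all windows. Member windows were rich in CpG, with a median of 24 CpG per window against 7 over all windows. *Dusp9*, *Ppp1r1b* and *Ptprv* have no entry.

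Values are FPKM, fragments per kilobase of gene scaled to the reads of the library. Library depth, recovered from the FPKM steps, was 18276164 to 27316451 reads. Of the marker genes, the 12 measured of 21 listed for undifferentiated spermatogonia summed to 416 to 457 FPKM in Aal, 117 to 173 in A1 and 106 to 116 in A3. The 8 measured of 11 for differentiating spermatogonia summed to 166 to 183, 336 to 364 and 392 to 411 FPKM. Both sums followed the labels, but not every gene did. Of the differentiating list, *Ccnd2* stood at 42.2 and 39.2 FPKM in Aal and 18.1 to 18.3 in A3. *Rec8* stood at 23.8 to 32.1 FPKM in A1 and 14.9 to 17.1 in A3. *Dmrtb1* had the largest rise of that list from A1 (11.7 to 17.4) to A3 (77.7 to 97.8). Its Aal libraries differed, at 11.7 FPKM in Aal-1, near the lowest A1 library, and 2.40 in Aal-2. *Sox3*, an undifferentiated marker, stood at 36.6 and 33.2 FPKM in Aal and 33.0 to 47.0 in A1. Library A1-3 stood apart in the Sertoli list (14 of 31 measured), which summed to 412 FPKM there against 60.9 and 63.4 in the other A1 libraries, 41.4 and 53.5 in Aal and 216 to 401 in A3. Sertoli cells are the somatic nurse cells of the tubule. The macrophage list (3 of 9 measured) was also highest in A1-3, at 10.5 FPKM against 0.459 to 1.63 in the other 7 libraries, and no measured marker was listed at 0. Of the members with 1 FPKM or more in an A1 library, 2 of 63 lay over 1.5 times both other A1 libraries in A1-3 (*Ptprv* and *Ptpre*), or 3.17% against 6.68% of all genes.

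A gene was called when its limma adjusted p was at most 0.01 and its log2 fold change, on the log2(FPKM + 1) scale, exceeded 1 in size. Of the 74 members, 64 were tested in at least 1 comparison and 60 in all 3. The 10 that were tested in none stayed below 1 FPKM, apart from *Ptprcap* in A1-1. From Aal to A1, 4 of 62 tested members were called, 3 higher (*Dusp9*, *Pik3ap1*, *Ppp1r1b*) and 1 lower (*Ptprn2*). That share, 6.45%, stood beside 9.15% of all genes tested, of which 4.19% were called higher and 4.97% lower. From A1 to A3, 0 of 62 were called, beside 1.5% of all genes (0.479% higher and 1.02% lower). In that comparison 24 members, or 38.7%, had an unadjusted limma p under 0.05, beside 34.0% of all genes, and limma voom on recovered reads also called 0. Over both steps, A3 against Aal, 10 of 64 were called, 6 higher and 4 lower, or 15.6% beside 17.6% of all genes (7.87% higher and 9.69% lower).

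With the adjusted p threshold at any fold, 17, 3 and 26 members passed in A1 against Aal, A3 against A1 and A3 against Aal, beside 27.0%, 7.6% and 43.7% of all genes. With a change above 1.5-fold, 14, 2 and 19 passed, beside 24.8%, 7.04% and 34.9%. The libraries of the groups did not overlap for 46 of 62, 31 of 62 and 49 of 64 members, beside 64.0%, 38.1% and 73.1%. Outside the called members, 12 members passed with such a change in some comparison. The median log2 fold change of the members was 0.08 from Aal to A1, 0.05 from A1 to A3 and 0.16 from Aal to A3, against 0.03, 0.01 and 0.04 over all genes. The member shares called were near or below the shares over all genes, and their difference was not tested. A3 against Aal and A1 against Aal share the 2 Aal libraries, so their calls are not independent.

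**Figure D1:**
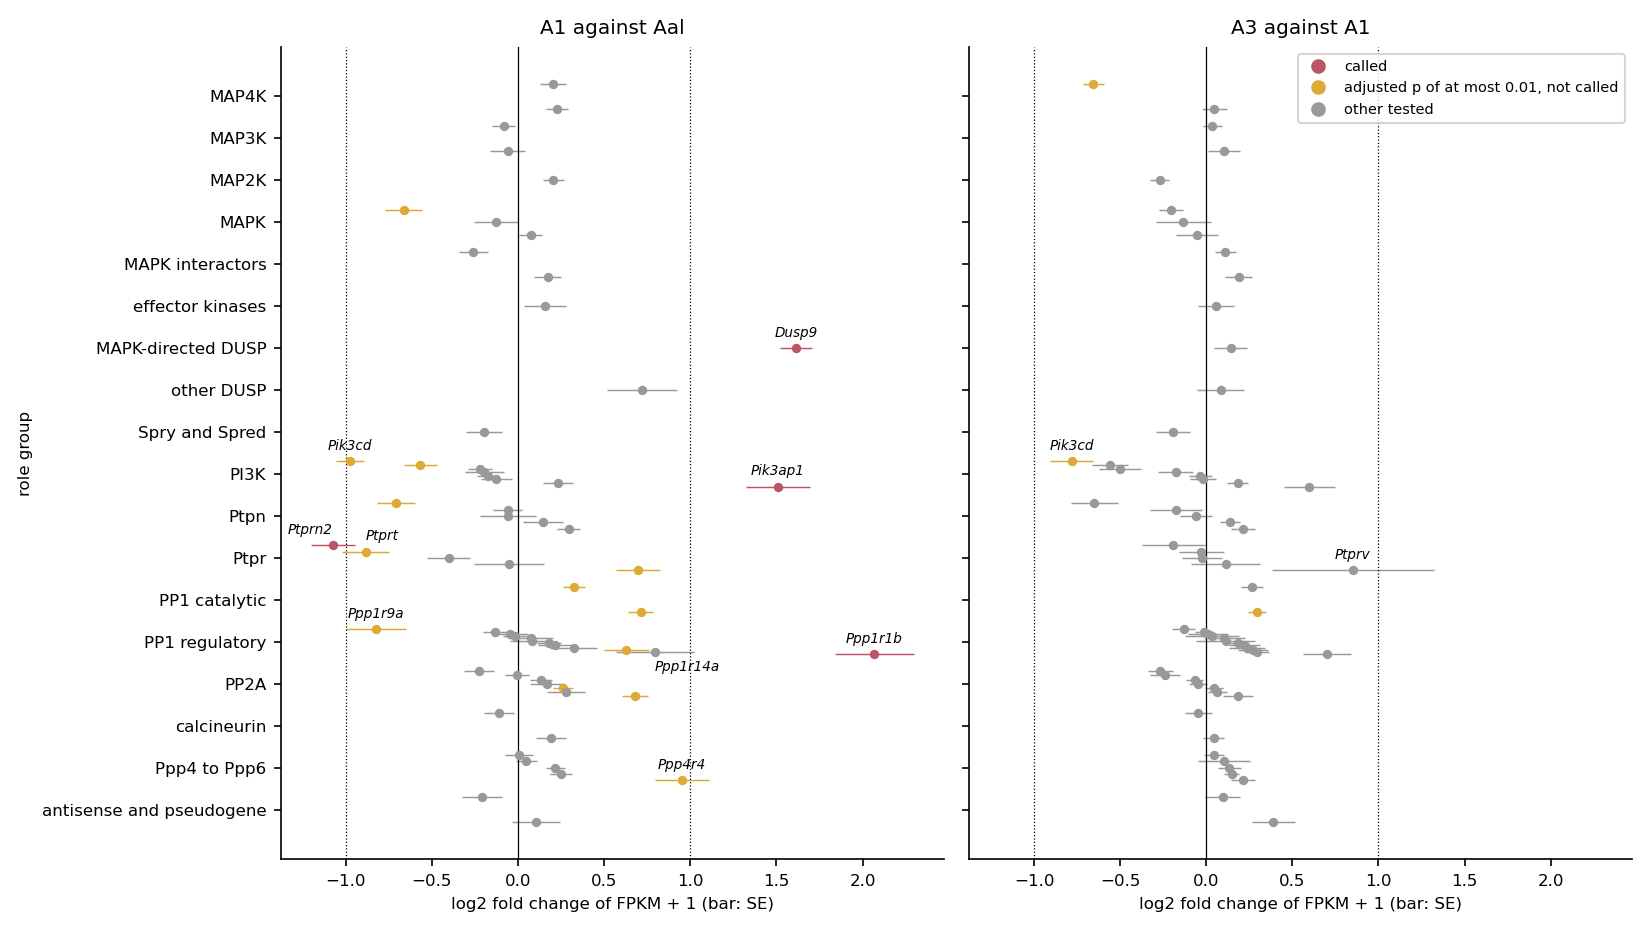
Log2 fold change (x axis, FPKM + 1; bars are SE) of every tested member, by role group (y axis), from Aal to A1 on the left and from A1 to A3 on the right. Red points are called, yellow points pass the adjusted p of 0.01 without the fold threshold, grey points are the other tested members, and dotted lines mark a log2 fold change of 1 in either direction. Most role groups cluster near 0, the 4 called members are on the left, and none is on the right.

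The kinase cascade itself held no call. None of the 8 measured kinases from MAP4K to MAPK was called in any comparison. Of all genes, 9.15% were called from Aal to A1, 1.5% from A1 to A3 and 17.6% over both steps. Among so few kinases a count of 0 is near those shares, and the difference was not tested. *Map2k1* (MEK1), a kinase of the growth factor cascade, stood at 35.2 and 34.8 FPKM in Aal, 39.2, 40.6 and 41.6 in A1 and 34.5, 33.1 and 32.6 in A3. All 3 A1 libraries lay above every other library, by small amounts that missed the threshold (limma adjusted p = 0.0304 from Aal to A1 and 0.0129 from A1 to A3). *Map3k4*, which feeds p38 and JNK, ranged only from 40.4 to 45.1 FPKM over the 8 libraries, and its log2 fold changes ran from -0.08 to 0.04. *Map3k2* was lower in level at 6.48 to 7.66 FPKM, with log2 fold changes from -0.06 to 0.10.

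*Map4k3*, a kinase of the STE20 family upstream of JNK that also relays amino acid supply to mTORC1, changed most among the upstream kinases. It stood at 32.2 and 30.9 FPKM in Aal, 36.0, 36.8 and 38.5 in A1 and 24.5, 22.6 and 22.5 in A3. The A3 libraries lay below all others, and the step from A1 to A3 had a log2 fold change of -0.66 ± 0.06 (SE; limma adjusted p = 0.000943), short of the fold threshold. Its relative *Map4k2* stood at 36.1 to 36.4 FPKM in Aal and 38.8 to 45.4 in the 6 later libraries, with a log2 fold change of 0.25 from Aal to A3 (limma adjusted p = 0.0174).

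Of the JNK genes, *Mapk10* passed the adjusted p threshold and *Mapk9* did not. *Mapk10* (JNK3), best known from neurons, stood at 11.4 and 13.1 FPKM in Aal, 7.81, 7.07 and 7.14 in A1 and 8.45, 6.24 and 6.60 in A3. Aal did not overlap the later groups, and the log2 fold change was -0.67 ± 0.10 (SE) from Aal to A1 (limma adjusted p = 0.00226), below the fold threshold. *Mapk9* (JNK2), the widely expressed form, overlapped between groups at 16.5 to 17.5, 13.4 to 18.3 and 11.4 to 17.3 FPKM in Aal, A1 and A3. *Mapk10* made up 41.9% ± 3.5 (SD, n = 2) of the summed FPKM of both genes in Aal, against 32.3% ± 3.6 (SD, n = 3) for A1 and 33.5% ± 2.9 (SD, n = 3) for A3. An exact two-sided permutation test of that share gave p = 0.1 from Aal to A1, which is the smallest p that groups of this size allow; 18 such tests were made on 6 shares, and Benjamini-Hochberg adjustment takes 0.1 to 0.138. Of the other core genes fixed for naming, *Map2k2*, *Mapk3*, *Mapk8*, *Mapk14*, *Akt1*, *Akt2* and *Rps6kb1* were not analysed here.

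The effector kinase below the cascade was not called either. *Rps6ka5* (MSK1), a nuclear kinase below ERK and p38 that phosphorylates CREB and histone H3, was low at 3.49 to 4.71 FPKM and had a log2 fold change of 0.21 (limma adjusted p = 0.179).

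Among the brakes on the cascade, *Dusp9* rose. *Dusp9* (MKP-4), a phosphatase of ERK encoded at chrX:70884758-70888853 (mm9), is the only MAPK-directed phosphatase among the Dusp members. It stood at 14.7 and 16.1 FPKM in Aal, 44.4, 54.0 and 49.5 in A1 and 48.5, 55.8 and 59.2 in A3. Every A1 and A3 library lay above both Aal libraries, while A1 and A3 overlapped. The log2 fold change was 1.61 ± 0.09 (SE) from Aal to A1 (limma adjusted p = 0.000127) and 0.14 (95% interval -0.08 to 0.36; limma adjusted p = 0.351) from A1 to A3. In A1-3, where Sertoli markers were high, *Dusp9* lay between the other A1 libraries, and the part of Sertoli cells in its levels was not tested. *Dusp12*, a dual-specificity phosphatase outside the MAPK group, stood at 4.34 and 2.38 FPKM in Aal and at 5.16 to 7.18 in the 6 later libraries, and its log2 fold change of 0.80 from Aal to A3 missed the threshold (limma adjusted p = 0.0129). Without Aal-1 it was called in both comparisons against Aal, at 1.05 and 1.13.

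The Spred inhibitors did not pass the test. *Spred1* stood at 8.54 and 7.47 FPKM in Aal, 7.03, 6.71 and 6.79 in A1 and 6.51, 5.73 and 5.38 in A3, with a log2 fold change of -0.39 from Aal to A3 (limma adjusted p = 0.0287). *Spred3* was below the FPKM minimum for the test, at 0.725 and 0.511 FPKM in Aal, 0.231, 0.199 and 0.243 in A1 and 0.534, 0.507 and 0.469 in A3, so the A1 libraries were the lowest.

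**Figure D2:**
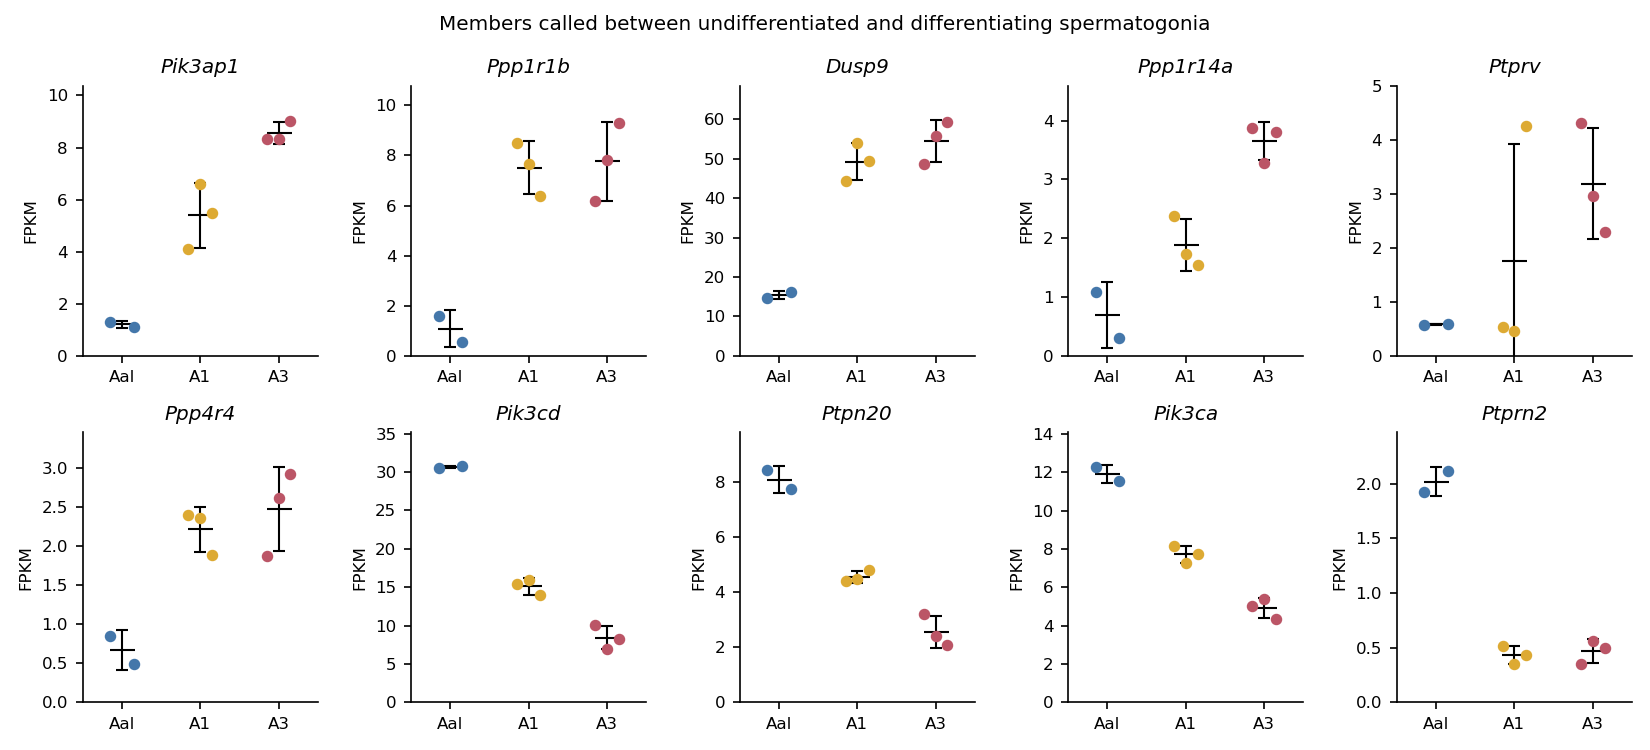
FPKM (y axis, linear from 0) of the 10 members called in at least 1 comparison, by group (x axis); points are libraries, the black bar is the mean and the whiskers the SD, which runs below 0 for *Ptprv* in A1 and is not drawn there. *Dusp9*, *Ppp1r1b* and *Ppp4r4* had their step between Aal and A1, *Pik3cd*, *Pik3ca* and *Ptpn20* were lower at each stage, and *Ptprv* was high in 1 of 3 A1 libraries.

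The PI3K genes held 3 of the 10 called members. Of 10 members, 8 were tested, and over both steps 1 was called higher and 2 lower, beside 7.87% and 9.69% of all genes. *Pik3cd* fell. It encodes p110δ, the class I catalytic subunit best known from leukocytes, at chr4:149023277-149076680 (mm9). It stood at 30.5 and 30.7 FPKM in Aal, 15.4, 16 and 13.9 in A1 and 10.1, 7.00 and 8.28 in A3, and no group overlapped another. The log2 fold change was -0.97 ± 0.08 (SE) from Aal to A1, just short of the fold threshold and so not called, -0.78 ± 0.13 (SE) from A1 to A3 (limma adjusted p = 0.00588) and -1.76 ± 0.14 (SE) over both (limma adjusted p = 3.21e-05). With voom on recovered reads the first step was called, at -1.01.

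*Pik3ca*, which encodes p110α, the subunit that most growth factor receptors use, lies at chr3:32296593-32367408 (mm9). It stood at 12.3 and 11.6 FPKM in Aal, 8.17, 7.28 and 7.72 in A1 and 5.03, 5.40 and 4.36 in A3. It too was lower at each stage without overlap, and it was called over both steps, at -1.13 ± 0.12 (SE; limma adjusted p = 0.000137). *Pik3cb*, which encodes p110β, stood at 13.8 and 15.6 FPKM in Aal, 16.8, 17.3 and 18.3 in A1 and 16.7, 17.0 and 17.3 in A3. Its log2 fold change over both steps was 0.20 (95% interval -0.01 to 0.40; limma adjusted p = 0.0903).

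The mean shares of the class I catalytic transcripts followed from those levels. Their summed level averaged 57.3 FPKM over the Aal libraries, 40.3 over A1 and 30.4 over A3. *Pik3cd* made up 53.5% ± 0.63 (SD, n = 2) of it in Aal, against 37.5% ± 2.39 (SD, n = 3) for A1 and 27.7% ± 3.91 (SD, n = 3) for A3. *Pik3cb* made up 25.7% ± 1.8 (SD, n = 2), 43.3% ± 2.25 (SD, n = 3) and 56.1% ± 3.0 (SD, n = 3). The share of *Pik3ca* stayed between 14.6% and 21.6% in all libraries. For *Pik3cd* and *Pik3cb* no group overlapped another in share. The exact two-sided permutation p was 0.1 for each pair of groups, the smallest possible, and 0.138 after Benjamini-Hochberg adjustment. *Pik3cg*, the remaining class I catalytic gene, was below 0.550 FPKM in every library and was not tested.

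**Figure D3:**
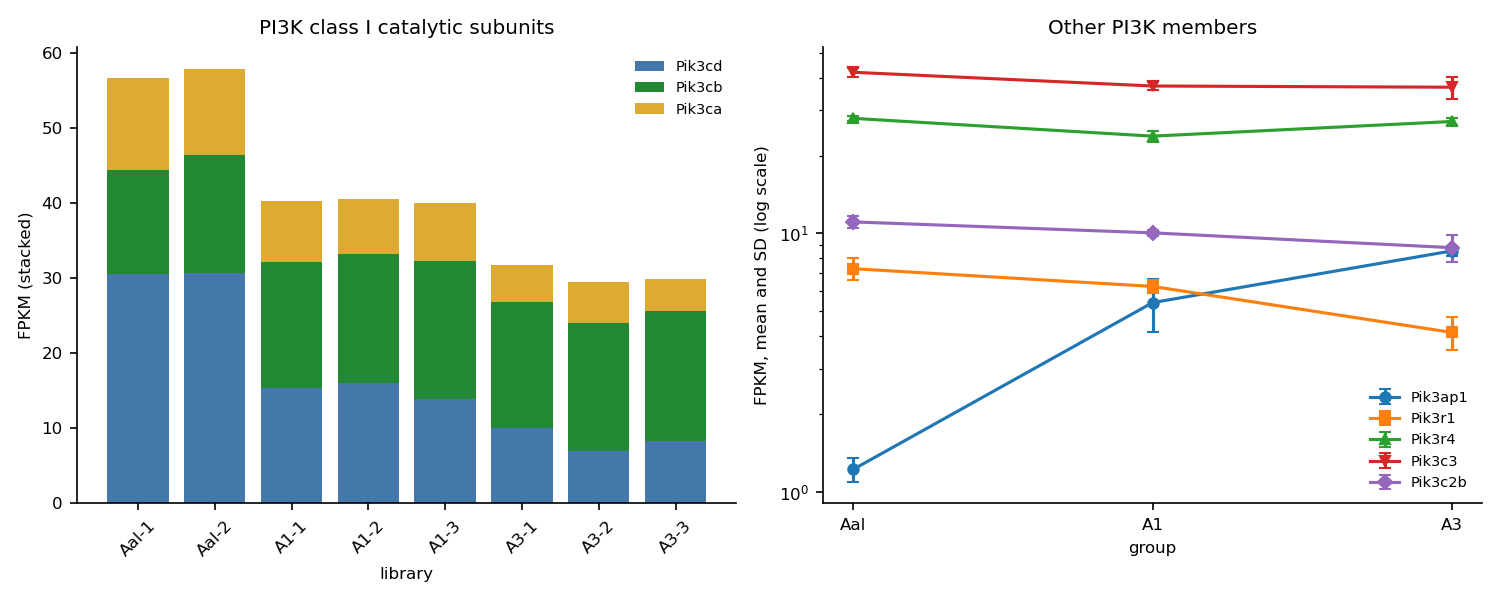
Left, FPKM of the class I PI3K catalytic genes stacked for each library (x axis). Right, mean and SD of the other tested PI3K members (y axis, log scale) in Aal (n = 2), A1 (n = 3) and A3 (n = 3). The blue *Pik3cd* segment shrinks from 30.5 FPKM in Aal-1 to 8.28 in A3-3 while the green *Pik3cb* segment goes from 13.8 to 17.3, and *Pik3ap1* is the line that climbs.

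*Pik3ap1* (BCAP), an adaptor that couples receptors to PI3K and is best known from B cells and macrophages, rose. The gene lies at chr19:41346863-41459586 (mm9). It stood at 1.31 and 1.13 FPKM in Aal, 4.10, 6.61 and 5.48 in A1 and 8.34, 8.32 and 9.03 in A3, and no group overlapped another. The log2 fold change was 1.51 ± 0.18 (SE) from Aal to A1 (limma adjusted p = 0.000796), 0.60 ± 0.15 from A1 to A3 (limma adjusted p = 0.0282) and 2.11 ± 0.12 over both (limma adjusted p = 1.36e-05). The call from Aal to A1 was lost without Aal-1 (limma adjusted p = 0.0111) or without Aal-2 (0.0172), with log2 fold changes of 1.57 and 1.45. *Pik3ap1* in A1-3 was between the other A1 libraries and *Pik3cd* there was the lowest of the 3. The macrophage markers summed to 10.5 FPKM there and to 1.1 and 0.623 in A1-1 and A1-2, and their part in the levels of either gene was not tested.

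The remaining PI3K members differed less. *Pik3r1*, the p85α regulatory subunit, stood at 7.80 and 6.81 FPKM in Aal, 6.07, 5.99 and 6.65 in A1 and 3.46, 4.32 and 4.63 in A3. It passed the adjusted p threshold over both steps without the fold, at -0.70 ± 0.14 (SE; limma adjusted p = 0.00362). *Pik3c3* (VPS34), the class III enzyme of autophagy and endosomes, had the highest level of the group at 34.4 to 43.2 FPKM, with a log2 fold change of -0.19 over both steps (limma adjusted p = 0.103). Its partner *Pik3r4* (VPS15) stood at 22.5 to 28.3 FPKM with -0.04, and the class II gene *Pik3c2b* at 7.59 to 11.5 FPKM with -0.31. *Pik3r5*, a partner of *Pik3cg*, was at 0.267 to 0.940 FPKM and highest in Aal.

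Among the cytosolic tyrosine phosphatases (Ptpn; 5 of 7 tested), *Ptpn20* fell. *Ptpn20* lies at chr14:34402456-34453940 (mm9). It stood at 8.42 and 7.72 FPKM in Aal, 4.39, 4.45 and 4.78 in A1 and 3.21, 2.40 and 2.08 in A3, again without overlap between groups. The log2 fold change was -0.71 ± 0.11 (SE) from Aal to A1 (limma adjusted p = 0.00211), -0.65 ± 0.14 from A1 to A3 (limma adjusted p = 0.0169) and -1.36 ± 0.16 over both (limma adjusted p = 0.000205). *Ptpn23* (HD-PTP), which sorts receptors at endosomes, had the highest level of the group, at 37.5 and 41.3 FPKM in Aal, 48.9, 49.7 and 46.8 in A1 and 52.1, 51.5 and 56.7 in A3, and passed the adjusted p threshold over both steps at 0.43 (limma adjusted p = 0.00169). *Ptpn1* (PTP1B), which acts on the insulin receptor, *Ptpn9* and *Ptpn21* had log2 fold changes from -0.23 to 0.15 over both steps. *Ptpn5* and *Ptpn22* were not tested. *Ptpn5*, a phosphatase that binds ERK, was at 0.208 to 0.228 FPKM in Aal, 0.350 to 0.407 in A1 and 0.557 to 0.665 in A3.

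The members named for receptor-type tyrosine phosphatases (Ptpr) were low, and 7 of 10 were tested in A3 against Aal. Of these, 1 was called higher and 1 lower, beside 7.87% and 9.69% of all genes. *Ptprn2*, a protein of secretory vesicles known from endocrine and neural cells, fell at the first step. It stood at 1.93 and 2.12 FPKM in Aal, 0.519, 0.351 and 0.432 in A1 and 0.349, 0.563 and 0.498 in A3. Both Aal libraries lay above all others, and the log2 fold change was -1.07 ± 0.13 (SE) from Aal to A1 (limma adjusted p = 0.000655). Over both steps it was -1.04 (limma adjusted p = 0.000244), and without A3-1 the change of -0.98 was short of the fold threshold. *Ptprn2* (chr12:117724193-118516640, mm9) holds the microRNA gene *Mir153* on the same strand, and whether the counting kept them apart is not stated.

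*Ptprt* and *Ptprr* had the same direction. *Ptprt* stood at 3.05 and 2.84 FPKM in Aal, 1.3, 1.19 and 0.935 in A1 and 1.16, 1.06 and 1.08 in A3, with a log2 fold change of -0.88 ± 0.14 (SE) from Aal to A1 (limma adjusted p = 0.00199). It crossed the fold threshold with voom on recovered reads, at -1.36. *Ptprr*, a phosphatase that binds ERK and p38, stood at 1.38 and 1.44 FPKM in Aal, 0.883, 0.872 and 0.719 in A1 and 0.694, 0.433 and 0.491 in A3, at -0.65 over both steps (limma adjusted p = 0.00277). *Ptprk*, an adhesion phosphatase and the highest of the group on average, went the other way, at 1.64 and 1.92 FPKM in Aal, 3.29, 3.49 and 3.75 in A1 and 2.87, 3.40 and 4.05 in A3. Its log2 fold change was 0.70 ± 0.13 (SE) from Aal to A1 (limma adjusted p = 0.0043), without the fold. *Ptprd* overlapped in every comparison, at 2.11 to 4.17 FPKM.

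*Ptprv* was high in the same libraries as the Sertoli markers. *Ptprv* (OST-PTP), known from osteoblasts and Sertoli cells, stood at 0.579 and 0.590 FPKM in Aal, 0.539, 0.470 and 4.27 in A1 and 4.31, 2.97 and 2.31 in A3. The libraries with more than 1 FPKM of *Ptprv* were A1-3 and the 3 A3 libraries, which were also the 4 with the highest Sertoli sums. It was called higher in A3 against Aal at 1.38 ± 0.20 (SE; limma adjusted p = 0.000541), a call lost in a fit on all 8 libraries (limma adjusted p = 0.0348). From A1 to A3 it was not called at 0.85 ± 0.47 (SE; limma adjusted p = 0.255), while without A1-3 it was, at 1.45 (limma adjusted p = 0.00358). In A3 against Aal, 10 of 12 tested Sertoli markers were also called higher and 1 (*Trf*) lower, and their part in the change of *Ptprv* was not tested. *Ptpre* stood at 0.433 and 0.402 FPKM in Aal, 0.647, 0.850 and 1.69 in A1 and 1.49, 1.14 and 0.948 in A3. It was highest in A1-3, and its order among the A3 libraries was that of the Sertoli sums. It passed the adjusted p threshold over both steps at 0.62 ± 0.14 (SE; limma adjusted p = 0.00549).

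**Figure D4:**
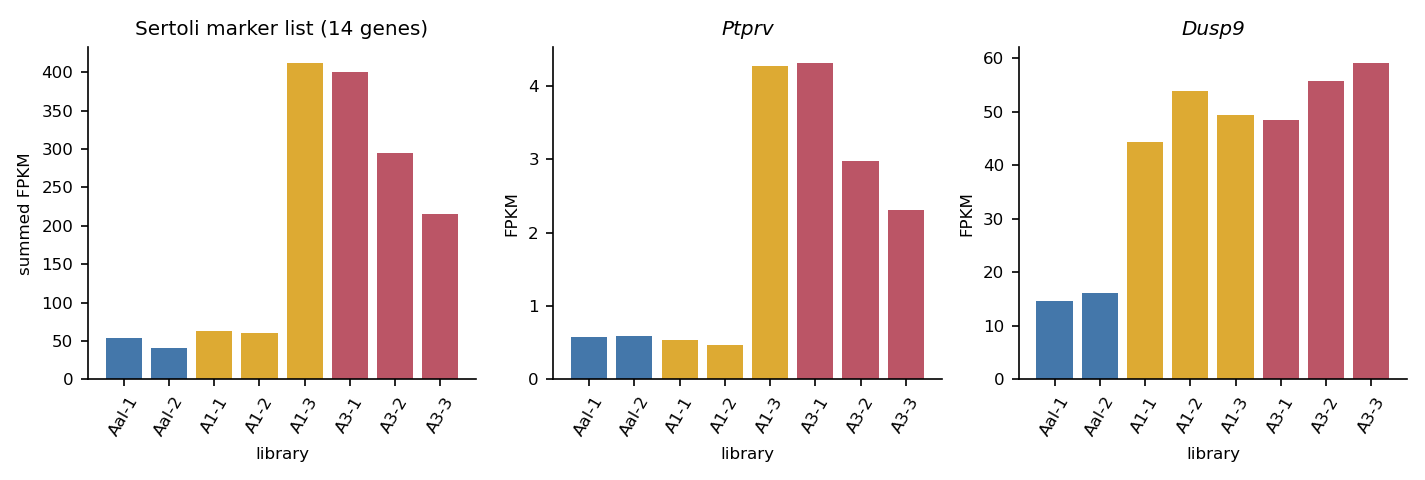
Bars from 0 for each library (x axis): summed FPKM of the 14 measured Sertoli markers on the left, FPKM of *Ptprv* in the middle and of *Dusp9* on the right. The Sertoli sum and *Ptprv* are both high in A1-3 and in the 3 A3 libraries, while *Dusp9* is near 50 FPKM in all 3 A1 libraries.

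The other Ptpr members were below the FPKM minimum for the test. *Ptprb*, the vascular endothelial form, was at 0.654 and 0.682 FPKM in Aal, 0.292 to 0.349 in A1 and 0.223 to 0.328 in A3. The endothelial markers (5 of 8 measured) summed to 16.2 and 19.0 FPKM in Aal, 7.56 to 13.3 in A1 and 4.46 to 4.77 in A3, and their part in the levels of *Ptprb* was not tested. *Ptprz1* was at 0.133 to 0.632 FPKM and *Ptprcap*, a leukocyte protein in this group by its symbol only, at 0.323 to 1.33. In such bulk samples, fewer cells of a type and less RNA per cell cannot be told apart.

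*Ppp1ca*, a PP1 catalytic gene, had the highest mean level of all members. It stood at 207 and 211 FPKM in Aal, 258, 266 and 262 in A1 and 334, 318 and 313 in A3, with no overlap between groups. It passed the adjusted p threshold in all 3 comparisons, at log2 fold changes of 0.33, 0.29 and 0.62 (limma adjusted p = 0.00507, 0.00799 and 0.000151), none past the fold threshold. *Ppp1cc*, the isoform that male germ cells need to make sperm, stood at 74.8 and 71.4 FPKM in Aal, 129, 113 and 120 in A1 and 150, 145 and 140 in A3. Its log2 fold change over both steps was 0.98 ± 0.07 (SE; limma adjusted p = 2.06e-05), just short of the fold threshold, and without Aal-1 it was called at 1.01. *Ppp1cc* made up 25.9% ± 0.87 (SD, n = 2) of the FPKM of both genes in Aal, against 31.5% ± 1.83 (SD, n = 3) for A1 and 31.0% ± 0.28 (SD, n = 3) for A3. The share did not overlap between Aal and A1 (exact two-sided permutation p = 0.1, or 0.138 after Benjamini-Hochberg adjustment). It overlapped between A1 and A3 (p = 0.7, the same exact test).

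Of the 14 PP1 regulatory members, 12 were tested and 2 were called, both higher and both inhibitors. Over both steps 7.87% of all genes were called higher and 9.69% lower, and the difference was not tested. *Ppp1r1b* (DARPP-32), an inhibitor of PP1 known from dopamine-responsive neurons, lies at chr11:98209718-98219110 (mm9). It stood at 1.61 and 0.565 FPKM in Aal, 8.48, 7.67 and 6.39 in A1 and 6.17, 7.83 and 9.31 in A3. All later libraries lay above Aal, with a log2 fold change of 2.07 ± 0.23 (SE) from Aal to A1 (limma adjusted p = 0.000531) and 0.03 (95% interval -0.33 to 0.40; limma adjusted p = 0.909) from A1 to A3. It overlaps 1700003D09Rik on the other strand, and the sources used here do not say whether reads were counted by strand.

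*Ppp1r14a* (CPI-17), an inhibitor of myosin phosphatase known from smooth muscle, lies at chr7:30074339-30078409 (mm9). It stood at 1.09 and 0.300 FPKM in Aal, the lower of these from 4 reads, at 2.38, 1.72 and 1.55 in A1 and at 3.88, 3.29 and 3.80 in A3. No group overlapped another, and it was called over both steps at 1.5 ± 0.20 (SE; limma adjusted p = 0.000405). The peritubular myoid markers (3 of 6 measured) summed to 1.56 to 2.22 FPKM in Aal, 2.41 to 6.53 in A1 and 2.41 to 3.36 in A3. The highest sum was in A1-3, where *Ppp1r14a* was the lowest of the A1 libraries, from 15 reads. The part of such cells in the levels of *Ppp1r14a* was not tested.

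Other PP1 partners passed the adjusted p threshold without the fold, in either direction. *Ppp1r9a* (neurabin), which brings PP1 to actin, stood at 10.6 and 11.7 FPKM in Aal, 5.40, 4.84 and 7.60 in A1 and 7.64, 5.98 and 5.73 in A3, with a log2 fold change of -0.82 ± 0.17 (SE) from Aal to A1 (limma adjusted p = 0.00809). *Ppp1r2* (inhibitor-2) stood at 9.09 and 6.55 FPKM in Aal, 12.5, 12.3 and 12.7 in A1 and 11.4, 11.2 and 11.3 in A3, with 0.63 ± 0.13 (SE) from Aal to A1 (limma adjusted p = 0.00794). *Ppp1r8* (NIPP1), a nuclear inhibitor and the highest of the group, ranged from 85.0 to 106 FPKM with a log2 fold change of 0.17 over both steps (limma adjusted p = 0.106). The ankyrin-repeat partner *Ppp1r16a* passed the adjusted p threshold over both steps at 0.49 (limma adjusted p = 0.00115). *Ppp1r3b* and *Ppp1r1a* were not tested, at 0.734 FPKM or less in every library.

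PP2A subunits were abundant and 0 of 7 were called in any comparison. Of all genes, 9.15%, 1.5% and 17.6% were called in A1 against Aal, A3 against A1 and A3 against Aal. PP2A is built on a scaffold subunit, and the less abundant scaffold *Ppp2r1b* was highest in A1. It stood at 24.7 and 24.3 FPKM in Aal, 36.5, 41.5 and 41.5 in A1 and 34.6, 33.0 and 31.3 in A3, with no overlap between groups. The log2 fold change was 0.68 ± 0.08 (SE) from Aal to A1 (limma adjusted p = 0.000583), short of the fold threshold, and -0.27 ± 0.07 from A1 to A3 (limma adjusted p = 0.0363). *Ppp2r1a*, the main scaffold, stood at 94.8 and 115 FPKM in Aal, 86.7, 90.5 and 90.2 in A1 and 88.9, 94.2 and 96.9 in A3. The scaffold sum averaged 129 FPKM over the Aal libraries, 129 over A1 and 126 over A3, of which *Ppp2r1b* made up 19.0% ± 2.3 (SD, n = 2), 30.9% ± 1.1 (SD, n = 3) and 26.1% ± 1.8 (SD, n = 3). An exact two-sided permutation test gave p = 0.1 for each pair of groups, the smallest possible, or 0.138 after Benjamini-Hochberg adjustment. The catalytic gene *Ppp2cb* passed the adjusted p threshold from Aal to A1 at 0.26 (limma adjusted p = 0.00876) and *Ppp2r3c* over both steps at 0.46 (limma adjusted p = 0.00656). The targeting subunits *Ppp2r2a*, *Ppp2r5d* and *Ppp2r5e* had log2 fold changes from -0.07 to 0.07 over both steps.

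**Figure D5:**
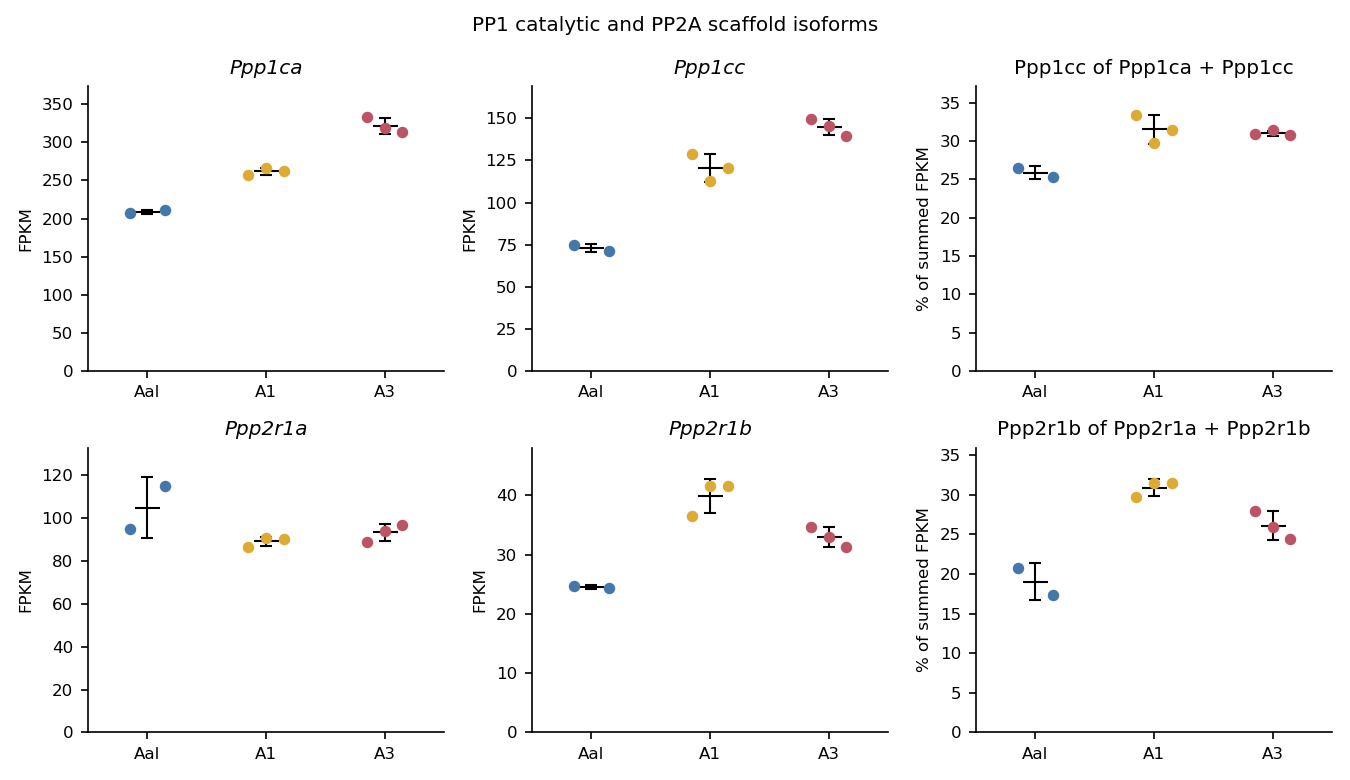
FPKM of the PP1 catalytic genes (top) and PP2A scaffold genes (bottom) by group, with the share of the summed FPKM on the right; points are libraries, black bars the mean and whiskers the SD, and every y axis starts at 0. *Ppp1ca* and *Ppp1cc* are higher at each stage, whereas *Ppp2r1b* is highest in A1, at 30.9% of the scaffold FPKM.

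Calcineurin, the calcium-dependent phosphatase, held no call. *Ppp3cb* ranged from 20.3 to 24.4 FPKM and *Ppp3cc*, the form enriched in testis, from 12.9 to 16.4, with log2 fold changes over both steps of -0.07 (95% interval -0.28 to 0.15) and 0.14 (95% interval -0.08 to 0.37; limma adjusted p = 0.574 and 0.24). In the Ppp4 to Ppp6 family, 1 of 5 was called over both steps, beside 17.6% of all genes. *Ppp4r4*, a regulatory subunit of PP4 encoded at chr12:104770775-104852042 (mm9), stood at 0.854 and 0.487 FPKM in Aal, 2.40, 2.37 and 1.89 in A1 and 1.88, 2.62 and 2.92 in A3. It was 0.95 ± 0.16 (SE) from Aal to A1 (limma adjusted p = 0.00263), which became a call without A1-3 at 1.03. Over both steps it was called at 1.05 ± 0.17 (SE; limma adjusted p = 0.00114), a call lost without Aal-2 (0.89; limma adjusted p = 0.0218) or without A3-3 (0.96, short of the fold threshold). The catalytic gene *Ppp4c* stood at 76.0 and 79.1 FPKM in Aal, 89.9, 89.8 and 90.9 in A1 and 98.5, 102 and 99.5 in A3, and passed the adjusted p threshold over both steps at 0.36 (limma adjusted p = 0.00133). *Ppp6r1* passed likewise at 0.38 (limma adjusted p = 0.00302), and *Ppp5c* and *Ppp4r2* did not, at 0.22 and 0.10. The pseudogene *Ppp4r1l-ps* ranged from 3.46 to 4.51 FPKM and the antisense gene *Map2k3os* from 0.849 to 2.03, and neither passed the test.

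Other genes of these pathways were taken from a list of 139 receptors, RAS and RAF regulators, PI3K and mTOR genes, stress-branch genes and nuclear targets, none of them a member. The list too was chosen with earlier results of these data known. From Aal to A1, 1 of 48 tested was called higher and 5 lower, beside 4.19% and 4.97% of all genes. From A1 to A3, 1 of 48 was called higher and 0 lower, beside 0.479% and 1.02%. From Aal to A3, 4 of 49 were called higher and 8 lower, beside 7.87% and 9.69%, and these differences from all genes were not tested. The median log2 fold changes were 0.06, -0.03 and -0.08, against 0.03, 0.01 and 0.04 over all genes. Of the 5 called lower from Aal to A1, 1 was a receptor, 1 a RAS regulator and 3 were nuclear targets.

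*Ret*, the GDNF co-receptor kinase, stood at 78.7 and 86.5 FPKM in Aal, 30.1, 18.0 and 16.5 in A1 and 23.5, 17.6 and 17.5 in A3, at -1.94 ± 0.23 (SE) from Aal to A1 (limma adjusted p = 0.000654). Of the nuclear targets, *Etv5* (-1.75), *Egr3* (-1.36) and *Etv4* (-1.03), transcription factors known to be induced by ERK signalling, were called lower at the same step, as was *Rasgrf1* (-1.05), an exchange factor for RAS. *Ret* and *Etv5* are also on the list of undifferentiated markers. The calls of *Ret* (limma adjusted p = 0.0116 and 0.0175), *Egr3* (0.0246 and 0.0269) and *Rasgrf1* (0.048 and 0.0987) were lost without Aal-1 or Aal-2, that of *Etv5* without Aal-2 (0.0179), and that of *Etv4* dropped just short of the fold threshold without Aal-1, A1-2 or A1-3. *Rasgrf1* was likewise not called without A1-2 (0.0193) or A1-3, where the change was -0.83. Its call was also lost with a pseudocount of 0.1 (limma adjusted p = 0.013), without the filter (0.0147) and without the variance trend (0.0131). A replicate block took *Rasgrf1* to -0.834 and *Etv4* to -0.998, both short of the fold threshold.

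Of 7 tested genes of the stress branch, 1 was called higher from Aal to A1 and 3 over both steps, with 0 called lower. Of all genes, 4.19% and 7.87% were called higher in these comparisons. The lowest change of the branch over both steps was -0.30, for *Tab1*. *Ccnd1* was also called higher. *Gadd45b*, which activates the p38 and JNK arm through MAP3K4, stood at 3.01 and 1.64 FPKM in Aal, 11.5, 15.5 and 12.7 in A1 and 21.2, 24.1 and 23.3 in A3, at 2.12 ± 0.20 (SE) from Aal to A1 (limma adjusted p = 0.000336). Over both steps *Gadd45g* (1.02) and *Hspb1* (2.05), the small heat shock protein below p38, were also called higher. *Hspb1* stood at 1.33 and 1.41 FPKM in Aal, 2.75, 5.27 and 9.51 in A1 and 10.1, 8.13 and 8.29 in A3, so its 4 highest libraries were also the 4 with the highest Sertoli sums, whose part in its change was not tested. The call of *Gadd45g* was lost without Aal-2 (0.96) or A3-3 (0.91), with median-ratio scaling of the libraries (0.98) and with a replicate block (0.91). *Ccnd1*, the G1 cyclin that both ERK and PI3K signalling induce, stood at 22.7 and 20.1 FPKM in Aal, 36.4, 39.3 and 36.7 in A1 and 64.7, 81.7 and 87.1 in A3, and was the only called gene of the list from A1 to A3, at 1.03 ± 0.11 (SE; limma adjusted p = 0.00123). That call was lost without A3-2 (0.99) or A3-3 (0.94). *Ccnd2* was at 42.2 and 39.2, 39.9, 31.2 and 34.2, and 18.3, 18.1 and 18.1 FPKM in the same order, and was called lower over both steps at -1.12 ± 0.07 (SE; limma adjusted p = 1.92e-05). In the PI3K and mTOR part, *Rhebl1*, a relative of the mTORC1 activator RHEB, fell by 1.60 and *Inpp4a*, a lipid phosphatase, by 1.24 on the log2 scale over both steps, and the insulin receptor *Insr* fell by 1.21.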

How the data were processed

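RNA from 8 sorted cell preparations was sequenced as 75 bp single-end reads from a stranded mRNA kit. The authors trimmed reads with cutadapt 1.9, aligned them to mm9 with STAR 2.5.2b and counted genes with featureCounts; the deposited values are FPKM, and the annotation, the use of strand, the treatment of reads shared by paralogs and the step to FPKM are not given in the sources used here. The authors' own test was DESeq2 on counts, which takes no FPKM, so limma 3.58.1 in R 4.3.3 was used here.

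Values were tested as log2(FPKM + 1) on the libraries of each pair of groups (lmFit, eBayes with trend, two-sided), for genes with FPKM of at least 1 in at least 2 libraries, with Benjamini-Hochberg adjustment over all tested genes. This scale understates changes of low genes. Calls needed an adjusted p of at most 0.01 and a log2 fold change above 1 in size; a second tier used 0.585. Whole reads were recovered for 100% of genes to within 0.02 reads; table genes held 34.0% to 34.4% of library reads, and 4 members had under 10 reads in a library. On simulated data with 200 genes changed 4-fold, 98.5%, 99.0% and 98.0% were called in A1 against Aal, A3 against A1 and A3 against Aal. The changed genes were drawn from the more highly expressed ones, at a dispersion of 0.02 and without an outlying library. These shares therefore do not apply to changes near the fold threshold or to low genes.

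Named were all called members, the largest second-tier rise and fall of each role group, the most abundant member of each, core genes and called list genes; other members appear by value or range, and some genes under the rule are not reported here. Members and lists were chosen with earlier results of these data known. Positions are GENCODE M1 (mm9), matched for 68 of 74 members; 26 overlap another gene, 6 on the same strand. Protein sequences were not used here. Alternatives covered the pseudocount, filters, scaling, thresholds, a fit on 8 libraries, the variance trend, voom on recovered reads, a replicate block and leaving out each library.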

Additional observations from a re-analysis of the deposited data

How the results depend on the processing

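Counts of called members moved with some settings. From Aal to A1, 4 members became 7 with a pseudocount of 0.1 or with voom on recovered reads, 17 without the fold threshold and 2 to 5 when each library was left out. From A1 to A3, 0 became 3 without the fold threshold and 0 to 1 with a library left out. Over both steps, 10 became 6 with an FPKM minimum of 5, which leaves fewer genes to test, 26 without the fold threshold and 8 to 11 with a library left out. Called genes of the pathway list went from 6 to 18 without the fold threshold, 10 with voom and 2 to 8 with a library left out from Aal to A1. From A1 to A3 they went from 1 to 4 with a pseudocount of 0.1 or voom, 7 without the fold threshold and 0 to 3 with a library left out. Over both steps they went from 12 to 23 without the fold threshold and 11 to 13 with a library left out. Where 1 Aal library remained, it was assumed to vary like the other group. The cause of these shifts was not tested, apart from the thresholds and filters that change what can be called. For the same replicate number, correlations of A1 and A3 deviations were -0.107, 0.022 and -0.323. Deviations from the mean of so few libraries depend on each other, so these values cannot settle whether samples were paired. With a replicate block, 5, 0 and 10 members and 7, 1 and 11 list genes were called.

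Of the values for single genes, 2114 kept their side of the threshold and direction, 66 gained a call, 30 lost one and 20 changed sign, all 20 with 1 library left out and all small. Part of the 66 came from looser thresholds, under which a call can be gained but not lost. With each library left out, the log2 fold change from A1 to A3 ran from -0.085 to 0.236 for *Egr3*, -0.1 to 0.209 for *Gadd45g*, -0.009 to 0.097 for *Map4k2*, -0.168 to 0.024 for *Mapk10*, -0.276 to 0.004 for *Mapk9*, -0.096 to 0.025 for *Pik3c3*, -0.061 to 0.001 for *Pik3cb*, -0.091 to 0.172 for *Ppp1r1b*, -0.037 to 0.03 for *Ppp1r8*, -0.003 to 0.276 for *Ppp1r9a*, -0.126 to 0.066 for *Ptprk*, -0.096 to 0.029 for *Ptprt* and -0.258 to 0.158 for *Ret*. For *Ppp3cb* it ran from -0.224 to 0.005 from Aal to A1 and from -0.181 to 0.049 over both steps. The FPKM minimum of 1, rather than a count of reads, left members out of the test; without it 4, 0 and 10 members were called. At this depth the value of *Ppp1r14a* in Aal-2 rests on 4 reads.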
